A study of Mus musculus with 6 samples.

Results

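The expression of 9 genes from 3 families of ATP-dependent chromatin remodellers was examined in mouse small pre-B cells. The genes are Smarca4, Smarca2, Smarcc1, Smarcb1, Arid1a and Arid1b of the SWI/SNF (BAF) complex, Chd4 and Mbd3 of the NuRD complex, and Smarca5 of the ISWI family. They were taken by gene symbol from a table of 49997 symbols, with earlier results of these data already known. All 9 were found, and all 9 passed the filter on low counts.

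Small pre-B cells are bone marrow precursors that have largely stopped dividing and rearrange their light chain genes. RNA was profiled in 3 libraries from wild-type (WT) C57BL/6 mice and 3 libraries from mice with the ΔrsCBE genotype, at an age of 6 to 12 weeks. The cells of both groups were purified by flow cytometry from bone marrow, and the labels name no treatment. The prefix Δ marks a deletion, but the missing interval is not named in the labels; the series title links the work to chromatin topology mediated by CTCF and to receptor editing. The labels do not say whether replicates came from separate animals, so p-values measure the spread between these libraries, which may be technical in part. The ΔrsCBE libraries did not all come from 1 animal, since their sex patterns, given below with the depth, differ.

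Remodellers use the energy of ATP to slide, evict or exchange nucleosomes. BAF complexes open enhancers and promoters around either Smarca4 (BRG1) or Smarca2 (BRM) as the motor, NuRD couples the Chd4 motor to histone deacetylation, and Smarca5 (SNF2H) spaces nucleosomes and is known to help CTCF occupy its sites. In the B lineage, BRG1 and the Mi-2β motor encoded by Chd4 are known to be needed for early development.

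Library totals ranged from 428106 to 1300805 counts, and 3 counts correspond to 2.38 to 7.36 CPM (counts corrected for TMM-scaled library size). Per library, the 9 genes had between 17 counts (Smarcb1 in WT replicate 2) and 5370 counts (Smarca4 in WT replicate 3). Xist and Y-linked counts gave a female pattern in ΔrsCBE replicates 2 and 3 and a male pattern in the other 4 libraries. The B-lineage markers were present, since all 9 genes of a list with Cd79a, Pax5 and Rag1 had counts and their summed level was 11122 to 13371 CPM in WT and 11969 to 12429 CPM in ΔrsCBE. Of 8 T and NK cell markers 7 were at 0 in every library, and so were 5 of 7 erythroid markers, among them Hbb-bs and Alas2. The erythroid list summed to 277 to 315 CPM in WT and 268 to 297 CPM in ΔrsCBE, nearly all of it Tfrc, the transferrin receptor, which dividing cells of other types also express, and Hba-a1 had 1 count in 1 library. Of 8 myeloid markers 3 were at 0 (S100a8, Elane and Ly6g), and the summed level was 53.1 to 83.4 CPM in WT and 54.5 to 68.2 CPM in ΔrsCBE, most of it Itgam (34 to 65 counts per library). Lyz2 and S100a9 had 0 counts in each WT library and, in ΔrsCBE, 2, 4 and 2 counts and 2, 1 and 3 counts. Their part in the results was not tested. Markers of pro-B cells and large pre-B cells, 8 genes, summed to 531 to 633 CPM in WT and 527 to 727 CPM in ΔrsCBE. Most of this was Il7r (424 to 542 CPM) and Vpreb3 (61.7 to 149 CPM). Erg had 9 to 30 counts per library, Igll1 0 to 6, Dntt, Vpreb1 and Kit 0 to 3 each, and Vpreb2 was at 0. Cell-cycle genes, described below, were also expressed, with Mki67 at 3472 to 3759 CPM in WT and 1521 to 2418 CPM in ΔrsCBE. The share of dividing cells in the libraries was not measured. The 5 plasma cell genes summed to 98.1 to 120.1 CPM in WT and 119 to 147 CPM in ΔrsCBE, mostly Sdc1 and Xbp1. Prdm1 had 3 to 12 counts per library, Jchain 1 count in 1 library, and Tnfrsf17 was at 0.

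None of the 9 genes passed the threshold between genotypes. With the quasi-likelihood test of edgeR over 7792 genes, adjusted by Benjamini-Hochberg, 0 of 9 had an adjusted p-value under 0.05, against 1.69% of all tested genes, and the DESeq2 Wald test also called 0. At an unadjusted p-value under 0.05 there was 1 gene, Smarca5, against 10.2% of all tested genes. The median log2 fold change of the 9 genes was 0.028, beside 0.011 for all tested genes, with 5 values above 0 and 4 below. The ranges of the groups were separate for 3 of the 9 genes, against 16.1% of all tested genes, with 1 of the 3 higher in ΔrsCBE (7.23% of all) and 2 lower (8.92% of all). In the male libraries alone, with ΔrsCBE replicate 1 as the only ΔrsCBE library and its spread assumed to be that of WT, none passed. The log2 fold changes there were -0.073 for Smarca4, 0.11 for Smarca2, -0.35 for Smarcc1, -0.16 for Smarcb1, 0.18 for Arid1a, 0.19 for Arid1b and -0.36 for Mbd3, and those of Chd4 and Smarca5 were -0.15 and -0.50. In bulk RNA of this kind, fewer cells of a type and less RNA per cell cannot be told apart.

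**Figure D1:**
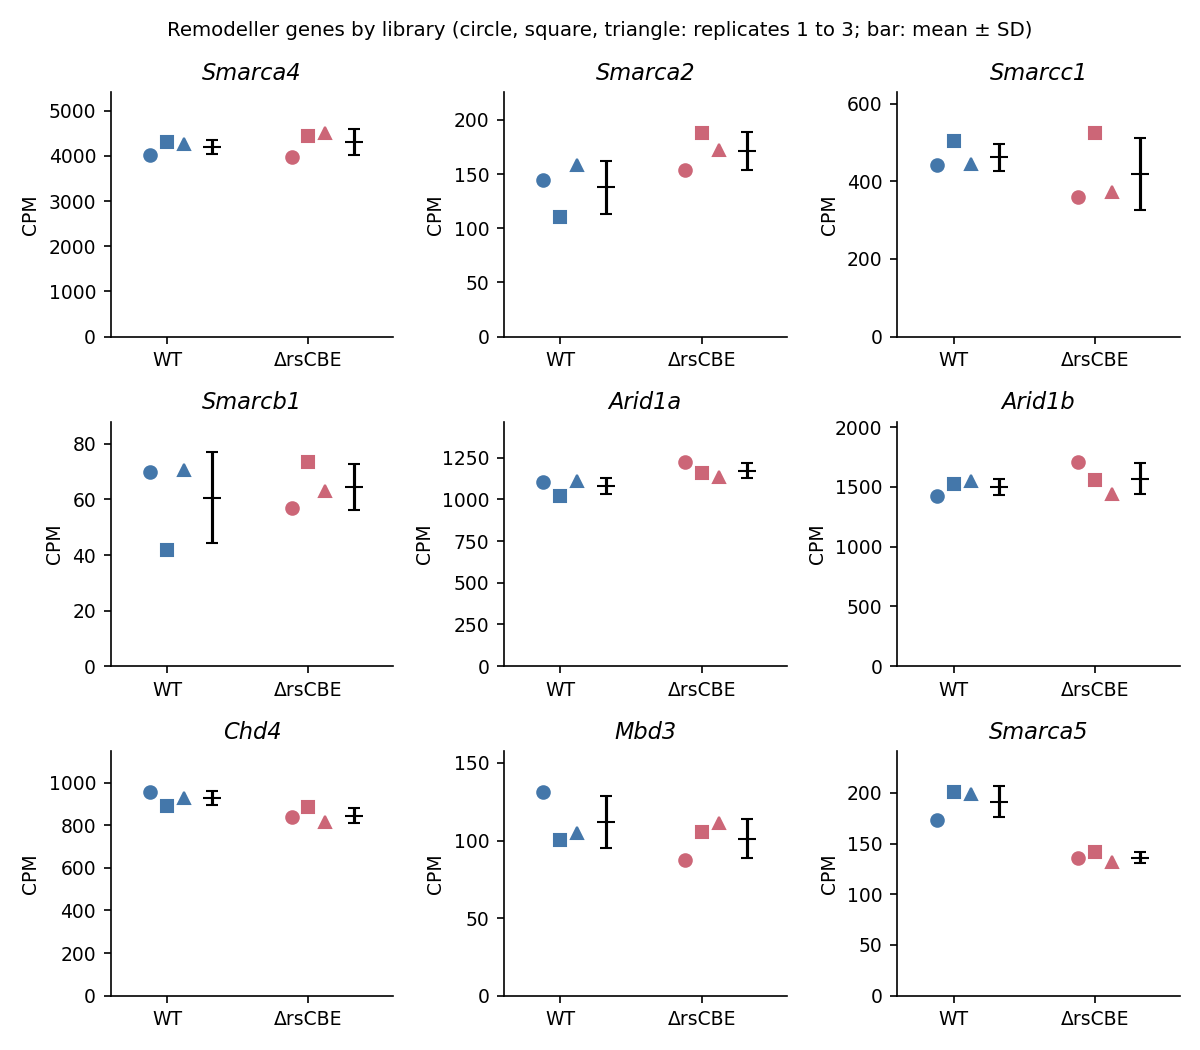
CPM of each of the 9 genes (vertical axes, each starting at 0) in 3 WT and 3 ΔrsCBE libraries, with circle, square and triangle for replicates 1 to 3 and a black bar for mean ± SD (n = 3). For Smarca5 the WT libraries, at 174 to 201 CPM, lie above the ΔrsCBE libraries, at 131 to 142 CPM, and for Arid1a and Chd4 the groups are separated by a narrower gap.

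The ISWI motor Smarca5 lay closest to the threshold. Its levels, in replicate order here and throughout, were 174, 201 and 199 CPM in the WT libraries and 136, 142 and 131 CPM in the ΔrsCBE libraries. Every ΔrsCBE library was below every WT library, and the spread within ΔrsCBE was small. The means were 191 ± 15.2 CPM for WT and 136 ± 5.15 CPM for ΔrsCBE (SD, n = 3). On the log2 scale the difference was -0.49 (SE 0.14, unadjusted 95% interval -0.78 to -0.20), with an adjusted p-value of 0.0895 by edgeR, which would pass only a threshold of 0.1 (2.41% of all tested genes). The adjusted p-value lay between 0.0864 and 0.411 over 15 alternative fits, and the log2 fold change lay between -0.55 and -0.45. In a fit of the male libraries alone, WT against ΔrsCBE replicate 1, the log2 fold change was -0.50. Smarca5 lies on chromosome 8, from 80698507 to 80739497 on the minus strand (GENCODE M21, GRCm38). A same-strand entry, Gm45872, shares 281 exon bases with it, and the count table does not list that entry.

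Smarca4 and Smarca5 are the most abundant of the 9 genes and the one nearest to the threshold, and their upstream bases are shown here as the regulatory sequence next to these values. The bases come from the RefSeq promoter table for GRCm38.p6 and stop before the first exon base annotated in GENCODE M21. Capitals mark the GC box GGGCGG on either strand, which is the core of the site bound by Sp-family factors.

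Smarca4, chr9:21615919-21616168, plus strand: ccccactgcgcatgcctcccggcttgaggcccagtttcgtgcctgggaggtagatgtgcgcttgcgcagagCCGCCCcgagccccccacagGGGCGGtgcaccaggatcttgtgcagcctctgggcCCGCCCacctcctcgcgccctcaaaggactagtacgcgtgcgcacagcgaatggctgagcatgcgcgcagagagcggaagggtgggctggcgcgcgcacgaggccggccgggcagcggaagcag
Smarca5, chr8:80739498-80739709, minus strand: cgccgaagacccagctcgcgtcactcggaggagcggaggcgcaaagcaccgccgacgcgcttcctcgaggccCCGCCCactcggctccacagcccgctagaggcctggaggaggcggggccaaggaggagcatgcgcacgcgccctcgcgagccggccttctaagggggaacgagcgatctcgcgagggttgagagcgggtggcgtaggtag

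The Smarca4 stretch is 250 bases long with 3 GC boxes and 70.8% G and C, and the Smarca5 stretch is 212 bases long with 1 GC box and 71.2% G and C. The table held 11 start sites for the 9 genes, and in the 250 bases before each start all 11 had GGGCGG on either strand, against 32.7% of 32851 windows of the same length. Those windows were not limited to genes tested here or matched for G and C content, so the shares do not set the 9 genes apart from other expressed genes. CCAAT occurred before 2 of the 9 genes, Chd4 and Mbd3 (33.9% of all windows), and TATAAA before 1, Mbd3 (12.4%). TTTGAA, the core of the element found in many mitotic genes, occurred before 0 of the 9 (15.99% of all windows). GCGGGAA, part of the E2F site, occurred before 2, Arid1a and Smarcb1 (3.82%). Such matches are letters in a window and not measured binding.

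The BAF motors differed widely in level, with 657 CPM per kb of exon for Smarca4 and 10.8 CPM per kb for Smarca2, and neither differed between genotypes beyond the threshold. Smarca4 had 4022, 4313 and 4252 CPM in the WT libraries and 3982, 4448 and 4510 CPM in the ΔrsCBE libraries. The lowest and the highest of these 6 values were both in ΔrsCBE, so the groups overlapped. The mean was 4196 ± 154 CPM for WT and 4314 ± 288 CPM for ΔrsCBE (SD, n = 3), and the log2 fold change was 0.040 with a 95% interval from -0.13 to 0.21 (edgeR adjusted p-value 0.936). Smarca4 lies on chromosome 9, from 21616169 to 21704230 on the plus strand. An entry for a small noncoding RNA on the same strand, Gm27373, shares 99 exon bases with it and is not listed in the count table, and its part in the Smarca4 level was not tested.

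Smarca2, the alternative motor, had 144, 110 and 158 CPM in the WT libraries and 154, 188 and 172 CPM in the ΔrsCBE libraries. WT replicate 3 was above ΔrsCBE replicate 1, so the groups overlapped, and WT replicate 2 was the lowest library. The log2 fold change was 0.28, the highest of the 9 genes, with a 95% interval from -0.043 to 0.59 (edgeR adjusted p-value 0.590). Smarca2 lies on chromosome 19, from 26605050 to 26778322 on the plus strand.

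The relative RNA level of the motors was compared as the Smarca4 share of Smarca4 plus Smarca2, with counts divided by the length of all exons merged. For WT the share was 98.4%, 98.9% and 98.3%. For ΔrsCBE it was 98.3%, 98.1% and 98.3%. All 3 ΔrsCBE values were below the WT values, though WT replicate 3 and ΔrsCBE replicates 1 and 3 are equal to the digits given, with means of 98.5% ± 0.282 and 98.2% ± 0.10 (SD, n = 3), a difference of -0.297 percentage points. The two-sided exact permutation p-value was 0.1, the smallest that 3 libraries against 3 allow, and 0.2 after adjustment over the 2 paralog pairs compared. The lengths matter here, since the 46 annotated transcripts of Smarca2 merge to 14.3 kb while the longest is 5.92 kb. With the longest transcripts the shares were 96.6% ± 0.643 in WT and 95.9% ± 0.227 in ΔrsCBE. How reads that match both paralogs were counted is not stated, and such reads are uncertain. The untested part of Gm27373 in the Smarca4 counts limits the share as well.

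Arid1a and Arid1b encode the large DNA-binding subunits that define canonical BAF, of which a complex holds 1 or the other. Arid1a had 1102, 1022 and 1110 CPM in the WT libraries and 1222, 1155 and 1137 CPM in the ΔrsCBE libraries. The groups did not overlap, with ΔrsCBE higher, but the nearest libraries differed by less than the SD within a group. The log2 fold change was 0.12 with a 95% interval from -0.075 to 0.31 (edgeR adjusted p-value 0.753). Arid1b had 1423, 1520 and 1551 CPM in WT and 1706, 1557 and 1444 CPM in ΔrsCBE, and the groups overlapped (log2 fold change 0.066, edgeR adjusted p-value 0.883). Arid1a lies on chromosome 4, from 133679008 to 133756769 on the minus strand, and Arid1b on chromosome 17, from 4994332 to 5347656 on the plus strand. The Arid1a share of the pair, per length, was 44.1% ± 1.74 for WT and 45.1% ± 1.18 for ΔrsCBE (SD, n = 3), a difference within the spread between replicates (two-sided exact permutation p-value 0.4, and 0.4 after adjustment over the 2 pairs).

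The core subunits Smarcc1 and Smarcb1 complete the BAF genes. Smarcc1 (BAF155), a scaffold on which the complex is built, had 441, 503 and 443 CPM in the WT libraries and 360, 525 and 373 CPM in the ΔrsCBE libraries. ΔrsCBE replicate 2 was the highest of all 6 libraries, and the other ΔrsCBE libraries were the lowest. The log2 fold change was -0.13 with a 95% interval from -0.40 to 0.14 (edgeR adjusted p-value 0.807), and leaving out ΔrsCBE replicate 2 gave -0.33, whereas leaving out ΔrsCBE replicate 1 gave -0.030. Smarcc1 lies on chromosome 9, from 110117708 to 110240178 on the plus strand, and shares 123 exon bases with Dhx30 on the opposite strand, so those reads are uncertain if strands were not separated. Smarcb1 (SNF5), which anchors the complex to the nucleosome, had 69.8, 41.7 and 70.5 CPM in the WT libraries and 56.9, 73.4 and 63.2 CPM in the ΔrsCBE libraries. WT replicate 2, with 17 counts in the shallowest library, was the lowest. The log2 fold change was 0.028 with a 95% interval from -0.41 to 0.47 (edgeR adjusted p-value 0.985), the widest interval of the 9 genes. Smarcb1 lies on chromosome 10, from 75896769 to 75921617 on the minus strand.

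Both NuRD genes had log2 fold changes below 0. Chd4, the motor, had 957, 893 and 930 CPM in the WT libraries and 838, 884 and 816 CPM in the ΔrsCBE libraries. The groups did not overlap, although WT replicate 2 and ΔrsCBE replicate 2 were close together. The log2 fold change was -0.13 with a 95% interval from -0.33 to 0.066 (edgeR adjusted p-value 0.716). Mbd3, which bridges the deacetylase and remodelling parts of the complex, had 131, 101 and 105 CPM in WT and 87.2, 105 and 111 CPM in ΔrsCBE. Its groups overlapped (log2 fold change -0.15, 95% interval from -0.50 to 0.21, edgeR adjusted p-value 0.849). Chd4 lies on chromosome 6, from 125095981 to 125130591 on the plus strand, and Mbd3 on chromosome 10, from 80392539 to 80399550 on the minus strand.

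**Figure D2:**
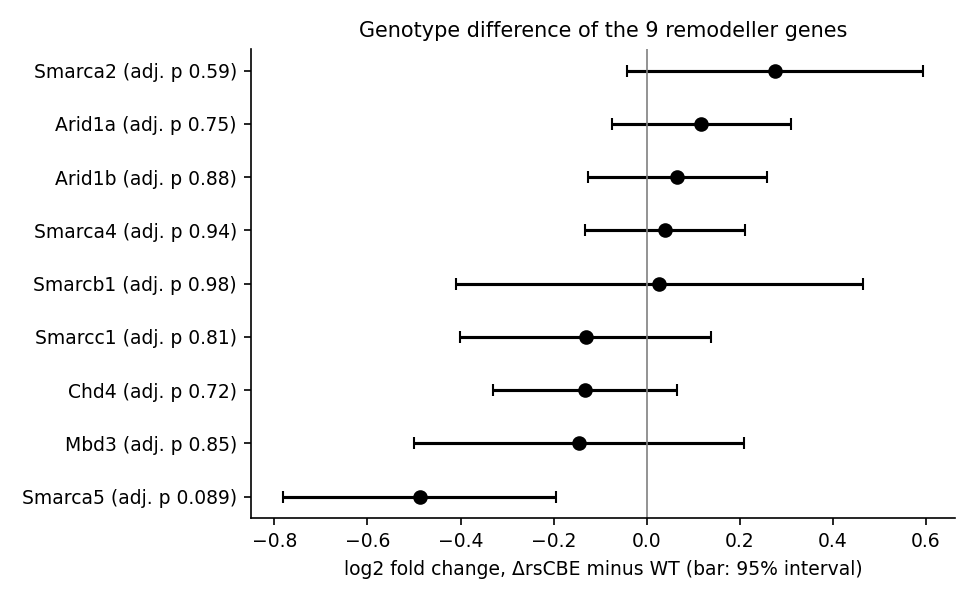
Log2 fold change, ΔrsCBE minus WT, of the 9 genes (points) with 95% intervals from the edgeR fit that are not adjusted for the number of genes (bars), and the adjusted p-value beside each name. The interval of Smarca5 runs from -0.78 to -0.20 and those of the other 8 genes include 0.

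On a scale that allows genes to be compared, CPM per kb of merged exons over the 6 libraries, the order was Smarca4, Arid1b, Chd4, Arid1a, Smarcc1, Mbd3, Smarca5, Smarca2 and Smarcb1. Smarca4 had a level of 657 ± 33.4 CPM per kb (SD, n = 6), 5.40 times that of Arid1b, the next gene. Arid1b (122 ± 8.01), Chd4 (110.5 ± 6.67) and Arid1a (98.0 ± 5.76 CPM per kb) followed, and neighbours among these 3 overlapped, each pair holding its order in 5 of 6 libraries. Smarcc1 (56.3 ± 8.51) and Mbd3 (53.7 ± 7.32 CPM per kb) also overlapped and held their order in 4 of 6 libraries. Smarca5, at 21.0 ± 4.09 CPM per kb, was below Mbd3 and above Smarca2 (10.8 ± 1.85) in all 6 libraries without overlap. Smarca2 was above Smarcb1 (7.89 ± 1.49 CPM per kb) in each of the 6 libraries, although their ranges overlapped. With the longest transcript as the length, Arid1a moved from rank 4 to rank 2. Smarca2 then rose to 26.1 CPM per kb, near Smarca5 at 26.8 CPM per kb. In the ΔrsCBE libraries Smarca2 had the higher CPM, 154, 188 and 172 against 136, 142 and 131 for Smarca5. Its longest transcript is also the shorter, at 5.92 against 6.11 kb. With that length Smarca2 was thus above Smarca5 in each ΔrsCBE library, so the order of these genes depends on the length used.

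**Figure D3:**
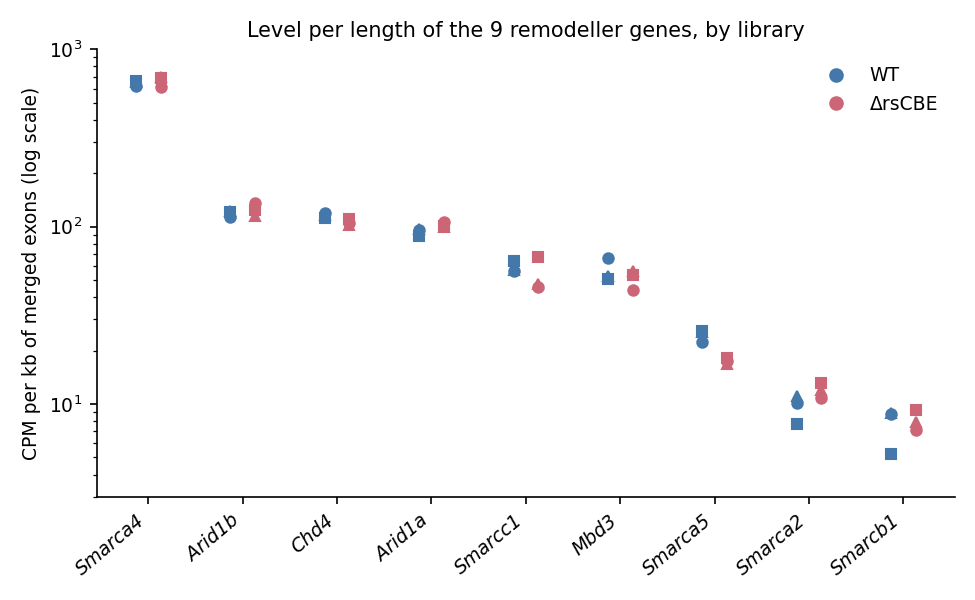
CPM per kb of merged exons (vertical axis, log scale) of the 9 genes in order of their mean, with 1 point for each library, blue for WT and red for ΔrsCBE and circle, square and triangle for replicates 1 to 3. Smarca4 lies at 615 to 697 CPM per kb, and the highest value of the other 8 genes is 135 CPM per kb, in Arid1b.

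The remaining subunits of these complexes and related motors formed a list of 59 genes, of which 52 were tested. By the same edgeR test 1 of the 52 passed the threshold, against 1.69% of all tested genes, and 4 had an unadjusted p-value under 0.05, against 10.2%. The median log2 fold change was 0.051, with 31 values above 0 and 21 below. By complex, 0 of 18 BAF, 1 of 11 NuRD, 0 of 9 ISWI, 0 of 7 further CHD and 0 of 7 further SNF2-type genes passed. The medians were 0.068 for BAF, -0.14 for NuRD, 0.059 for ISWI, 0.11 for the CHD genes and -0.13 for the SNF2-type genes. The 7 untested genes had few or no counts: Smarcd3, Actl6b and Dpf1 were at 0 in all libraries, Chd5 and Smarca1 had 1 count each, Dpf3 had 6 and Cdk2ap1 had 24 over the 6 libraries. Actl6b and Dpf1 are known as subunits of the neuronal BAF complex.

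The gene past the threshold was Rbbp4, a histone-binding chaperone that NuRD shares with several other complexes, including the chromatin assembly factor CAF-1. Rbbp4 had 341, 385 and 348 CPM in the WT libraries and 226, 214 and 216 CPM in the ΔrsCBE libraries. All ΔrsCBE libraries lay well below all WT libraries. Rbbp4 fell from 358 ± 23.8 to 219 ± 6.66 CPM (SD, n = 3), a log2 difference of -0.70 (SE 0.12, adjusted p-value 0.00112 by edgeR). It stayed past the threshold in all 15 alternative fits, with adjusted p-values from 8.43e-05 to 0.0428. Its NuRD partners did not pass: the deacetylase genes Hdac1 and Hdac2 had log2 fold changes of -0.41 and 0.17 (edgeR adjusted p-values 0.754 and 0.771), and Rbbp7, the close paralog, had -0.26 (edgeR adjusted p-value 0.793). Hdac1 had only 7 to 40 counts per library and Rbbp7 23 to 78. Their 95% intervals, -1.08 to 0.27 and -0.76 to 0.24, include the -0.70 of Rbbp4, whereas that of Hdac2, -0.13 to 0.48, does not. Rbbp4 lies on chromosome 4, from 129307100 to 129335370 on the minus strand.

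The next genes by p-value were Pbrm1, Hells, Bcl7a and Bicra, all short of the threshold by the same test. Pbrm1, which marks the PBAF form of SWI/SNF, had 565 ± 17.8 CPM for WT and 463 ± 20.7 CPM for ΔrsCBE without overlap (log2 fold change -0.29, edgeR adjusted p-value 0.247). Hells, a SNF2-type motor linked to DNA methylation and expressed in dividing cells, had 93.8 ± 21.1 and 59.1 ± 17.8 CPM with overlap (log2 fold change -0.59, edgeR adjusted p-value 0.283). Without ΔrsCBE replicate 2 its log2 fold change was -0.88 with an edgeR adjusted p-value of 0.0336. Bcl7a, a small BAF subunit, had 1323 ± 96.3 and 1557 ± 15.2 CPM (SD, n = 3), higher in all 3 ΔrsCBE libraries (log2 fold change 0.24, edgeR adjusted p-value 0.295). For Bicra, a subunit of the noncanonical BAF complex, the log2 fold change was 0.20 (edgeR adjusted p-value 0.586).

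**Figure D4:**
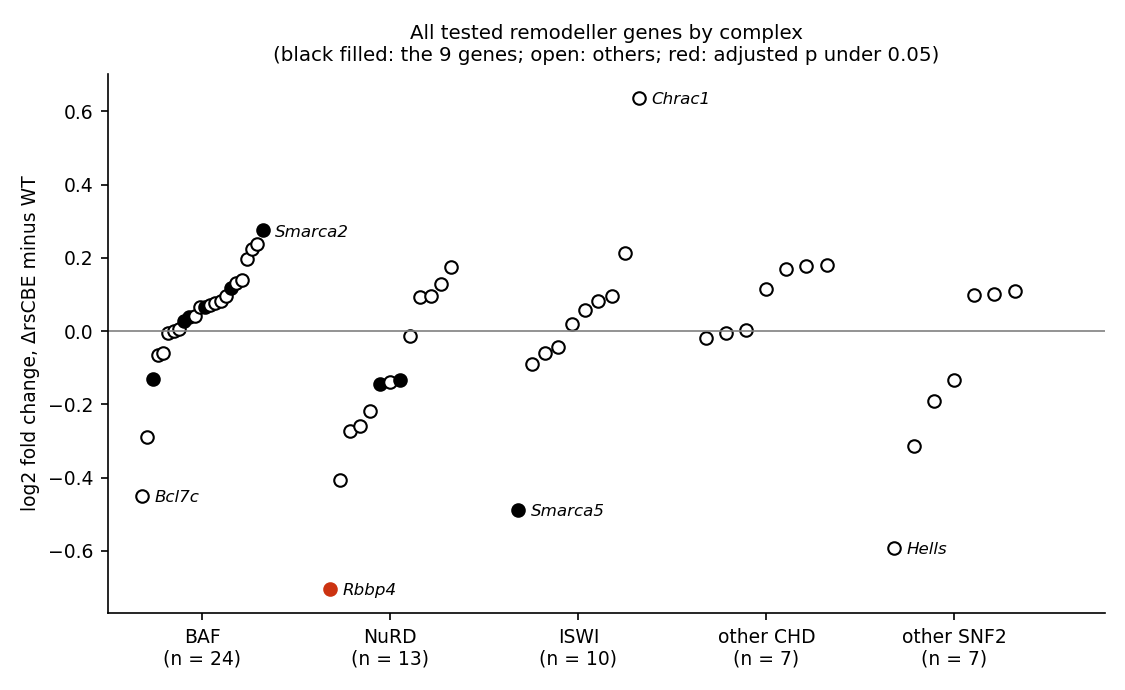
Log2 fold change, ΔrsCBE minus WT (vertical axis), of every tested remodeller gene, grouped by complex on the horizontal axis and ordered by value within a complex, with filled black points for the 9 genes, open points for the others and red for an adjusted p-value under 0.05. Rbbp4 at -0.70 is the red point, and Smarca5 at -0.49 is the lowest of the 9 genes.

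Proliferation markers moved with the genotype beside Smarca5 and Rbbp4. Of a cell-cycle list of 25 genes, including Mki67, Ccna2 and the Mcm helicase genes, 23 were tested. All 23 had log2 fold changes below 0, beside 3758 of all 7792 tested genes. Past the threshold, 14 were called lower in ΔrsCBE and 0 higher, against 1.49% of all tested genes called lower. The list overlaps gene sets that earlier results of these libraries had already shown to be lower, so it is no independent evidence. Its summed level was 6992, 7629 and 7277 CPM in the WT libraries and 3289, 4804 and 3002 CPM in the ΔrsCBE libraries. Mki67 alone held 3472, 3759 and 3476 CPM of the sum in WT and 1528, 2418 and 1521 CPM in ΔrsCBE. By this sum ΔrsCBE replicate 2 was the nearest to WT, though not for every gene of the list, such as Bub1 and Cdc20. ΔrsCBE replicate 2 also had the highest Smarca5 level of the 3 ΔrsCBE libraries, while its Rbbp4 level was the lowest. The 3 ΔrsCBE levels were close together for both genes, at 131 to 142 CPM for Smarca5 and 214 to 226 CPM for Rbbp4. The order of these libraries therefore carries little weight. A list of 10 early-response genes such as Fos and Jun was higher, at 2531 to 3062 CPM in WT and 3608 to 5499 CPM in ΔrsCBE, with 3 of 9 tested genes called higher (0.205% of all tested genes). The part of either list in the Smarca5 and Rbbp4 values was not tested.

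**Figure D5:**
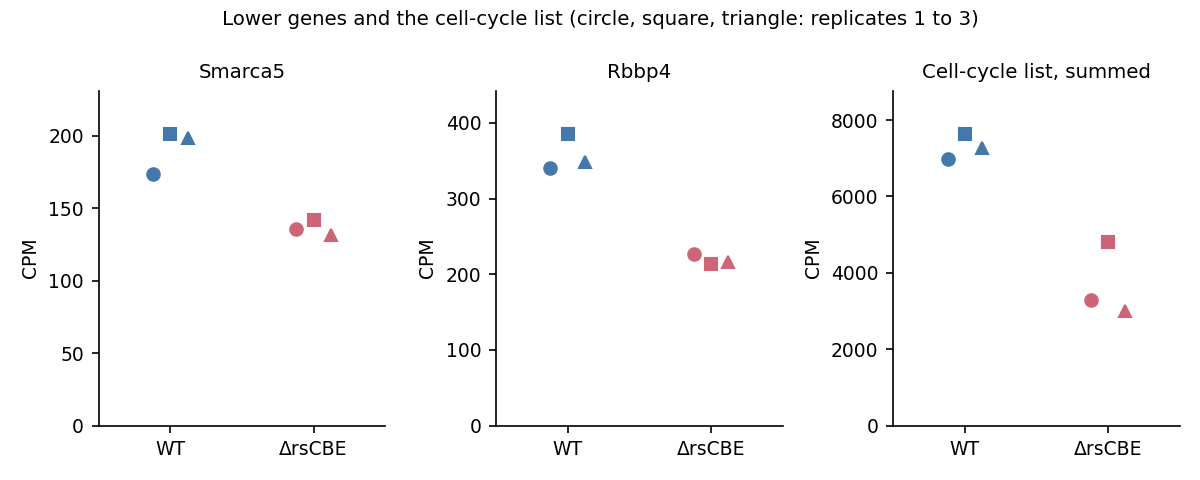
CPM of Smarca5, CPM of Rbbp4 and summed CPM of the 25 cell-cycle genes (vertical axes from 0) in WT and ΔrsCBE, with circle, square and triangle for replicates 1 to 3. All 3 quantities are lower in every ΔrsCBE library, and ΔrsCBE replicate 2 stands above the other ΔrsCBE libraries on the cell-cycle list at 4804 CPM.

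The genes most alike in pattern were ranked by Pearson's correlation of log2 CPM over the 6 libraries, as a description. With no gene of the 9 past the threshold, the ranking was made for the 3 motors Smarca4, Chd4 and Smarca5. For Smarca5 the leading genes were Ddb1 (r = 0.990), Gas2l3 (0.990) and Cdkn3 (0.988). Ddb1 had a log2 fold change of -0.27, and Gas2l3 and Cdkn3, both known from dividing cells, had -1.37 and -2.01. For Smarca4 they were Arid4b (0.996), Cnnm4 (0.981) and Irgm2 (0.977), with log2 fold changes of 0.18, 0.26 and 0.085. For Chd4 they were Ubl7 (0.993), Zfp518b (0.991) and Zmym1 (0.989), with log2 fold changes of -0.44, -0.68 and -0.25. These correlations rest on 6 libraries that differ in depth and genotype, which all genes share. The genes named are those with the highest values among 7792 genes.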

How the data were processed

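RNA from bone marrow small pre-B cells was sequenced after ribosomal RNA depletion with a stranded total RNA kit, per the labels' protocols, in 6 libraries. The deposited table holds raw read counts per gene symbol, and the submitters' processing notes name mm10, Trim Galore 0.6.10, STAR 2.7.11, HTSeq and DESeq2. The annotation, strand setting and filters are not given in the sources used here. Genotype was tested with edgeR 4.0.16 (filterByExpr with a minimum count of 10, TMM, glmQLFit with robust estimation, glmQLFTest) in R 4.3.3 over 7792 genes, with Benjamini-Hochberg adjustment, a threshold of 0.05 and no covariate. The fit was first checked on simulated counts with changes larger than any seen in the 9 genes. That check does not measure how well changes of their size are detected. Standard errors and 95% intervals come from the quasi-likelihood F statistic. CPM use TMM-scaled library sizes, and log2 CPM a prior count of 2. Exon lengths and coordinates come from GENCODE M21 (GRCm38, the assembly of mm10). Paralog shares were compared with exact permutation tests in scipy 1.17.1. The 9 genes and all lists were chosen with earlier results of these data known, and some planned markers are not reported here. The rule for naming took all 9 genes, the other remodellers past the threshold, to which the next by p-value up to 5 in all were added, and the 3 genes most alike to each motor. Alternatives covered scaling, DESeq2 1.42.0, count filters, each library left out, a replicate block, library sex, threshold and gene length; the fit of male libraries was chosen after seeing the data. Floors of 3 counts cover counting error only, since the labels name no molecular identifiers.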

Additional observations from a re-analysis of the deposited data

How the results depend on the processing

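No alternative fit put any of the 9 genes past an adjusted p-value of 0.05. At a threshold of 0.1 in the reported fit 1 gene, Smarca5, was called, where 2.41% of all tested genes were. The count over all genes, 132, was 87 with library sex as a covariate, a fit that sets ΔrsCBE replicate 1 alone against WT, 174 in the male libraries alone, which make the same contrast, 92 with the DESeq2 Wald test, and 59 to 187 when 1 library was left out (59 without WT replicate 3 and 59 without ΔrsCBE replicate 3). The other remodellers called were 1 to 2 with 1 library left out, the second being Hells without ΔrsCBE replicate 2. The median of the 9 genes, 0.028, was -0.15 with the sex covariate, -0.15 in the male libraries alone, and -0.083 to 0.054 with 1 library left out. The sign of Smarca4 turned with the sex covariate (-0.075) and in the male libraries (-0.073), and that of Smarcb1 with the sex covariate (-0.16), in the male libraries (-0.16) and with 1 library left out (-0.11 to 0.17, below 0 without WT replicate 2 and without ΔrsCBE replicate 2). The cause was not tested. Smarca2, Smarcc1, Arid1a, Arid1b, Chd4, Mbd3 and Smarca5 kept their sign in all 15 fits. The difference in the Smarca4 share was -0.39 to -0.14 percentage points and that in the Arid1a share 0.12 to 1.86 with 1 library left out. The labels name no block, so the replicate numbers were not taken as pairs. Deviations from the group means correlated at 0.013, 0.020 and 0.0091 for same-numbered libraries and at -0.047 to 0.034 for libraries with different numbers. Deviations sum to 0 within a group, so these values are a weak check on pairing. The replicate block gave 136 genes, 117 of them shared with the reported 132, and 0 of the 9. Depth limits what can be detected, most of all for Smarcb1, with 17 to 89 counts per library. Counts were also low for Mbd3 (41 to 132), Smarca2 (45 to 200) and Smarca5 (82 to 251).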

Other observations

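Among remodeller genes outside the 9, Cecr2, a partner of ISWI motors, had 2677 ± 49.3 CPM for WT and 2861 ± 57.7 CPM for ΔrsCBE (SD, n = 3). The groups did not overlap, but the log2 fold change was 0.095 (edgeR adjusted p-value 0.776). Chrac1, a small subunit of an ISWI complex, had the highest log2 fold change of the tested remodellers, 0.64, from 11.3 ± 4.06 and 19.1 ± 4.61 CPM, with a 95% interval from -0.16 to 1.43 (edgeR adjusted p-value 0.622). Both genes were singled out after their values were seen.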
